A study of Mus musculus with 6 samples.

Results

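The genes described here are 34 mouse genes of protein folding and quality control in the endoplasmic reticulum (ER), chosen by name as a list of ER chaperones and components of the unfolded protein response. All 34 are among the 31829 gene names on the array and among the 22775 that were bright enough to test. They are read by 45 probes, of which 44 were tested. RNA came from islets isolated from 6-week-old male mice on a mixed FVB/N, C57Bl/6J and Cd1 background. The 3 control samples were Nkx6.1fl/+;Pdx1-CreERTM and the 3 mutant samples were Nkx6.1fl/-;Pdx1-CreERTM littermates. Each sample pooled 2 pancreata of 1 genotype. Every mouse, controls included, carried the Pdx1-CreERTM transgene and a floxed Nkx6.1 allele and received tamoxifen, 2 mg per 25 g of body weight, in 4 injections between 4 and 6 weeks of age. Cre activity was thus driven by the Pdx1 promoter in all groups, the mutants had 1 null allele before any injection, and the controls kept 1 wild-type allele. Mutants and controls were compared to find genes that depend on Nkx6.1, a beta cell transcription factor.

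Proteins bound for secretion enter the ER through a membrane channel and fold there with the help of chaperones, disulfide isomerases and lectins. Chains that fail to fold are returned to the cytosol and degraded. When unfolded chains accumulate, the membrane sensors IRE1 (Ern1), PERK (Eif2ak3) and ATF6 signal to the nucleus and to the ribosome, which raises chaperone production and slows translation. Beta cells make proinsulin in large amounts and are known for their reliance on this system. Loss of PERK or of WFS1 is a known cause of diabetes in humans and mice.

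Many chaperone genes are known to carry the ER stress response element (ERSE) in their promoters, a CCAAT box separated by a fixed spacer from CCACG, through which ATF6 and XBP1 act together with NF-Y. A RefSeq table (GRCm38.p6) held a promoter window, from 250 bases before to 50 bases after the transcription start, for 29 of the 34 genes, and both strands were searched. ERSE (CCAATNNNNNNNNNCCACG) was found in 9 of the 29 (31%), against 37 of 27025 genes with a window (0.137%) and 0.119% of all 32851 windows. The related ERSE-II (ATTGG, any base, then CCACG) was found in Herpud1 and Dnajb11, 6.9% of the 29 against 0.0444% of all genes. The letters TGACGTGG, the core of another unfolded protein response element, were in 0 of the 29 windows and in 0.714% of all genes. Among 91 other ER genes with a window, ERSE was in 1 (1.1%, the oxidase gene Ero1lb), ERSE-II in 0 and TGACGTGG in 4 (4.4%). No member window held both ERSE and ERSE-II. These matches describe letters in a window and not binding. The 34 genes were chosen by name from a class known to carry ERSE, so their higher share is not an independent result.

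The sequences below are shown because the genes that hold these elements include the main chaperones and 2 of the genes with the largest differences in the mutant. The whole 250 bases before the start are given for Hspa5, the gene of BiP, and a short window around each match for the others. All read 5′ to 3′ on the strand of the gene, and capitals mark the matched element, which reads as its reverse complement where it lies on the opposite strand.
Hspa5, chr2:34771840-34772089, plus strand: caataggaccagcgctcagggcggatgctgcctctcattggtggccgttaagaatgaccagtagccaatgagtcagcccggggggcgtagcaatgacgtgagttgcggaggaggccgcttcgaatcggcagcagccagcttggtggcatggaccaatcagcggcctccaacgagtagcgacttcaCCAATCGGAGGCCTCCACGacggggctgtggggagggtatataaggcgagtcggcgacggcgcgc
Hsp90b1, chr10:86705623-86705671, minus strand: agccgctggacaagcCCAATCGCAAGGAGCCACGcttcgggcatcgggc
Hsp90b1, chr10:86705518-86705566, minus strand: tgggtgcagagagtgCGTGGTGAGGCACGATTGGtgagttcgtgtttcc
Calr, chr8:84847060-84847108, minus strand: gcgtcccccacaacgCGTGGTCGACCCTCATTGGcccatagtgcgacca
Canx, chr11:50325785-50325833, minus strand: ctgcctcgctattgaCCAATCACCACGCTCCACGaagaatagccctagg
Pdia6, chr12:17266476-17266524, plus strand: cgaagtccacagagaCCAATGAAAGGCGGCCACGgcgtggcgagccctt
Dnajc3, chr14:118937812-118937860, plus strand: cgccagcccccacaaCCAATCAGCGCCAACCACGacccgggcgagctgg
Syvn1, chr19:6046517-6046565, plus strand: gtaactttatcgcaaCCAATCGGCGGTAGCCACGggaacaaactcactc
Derl3, chr10:75893227-75893275, plus strand: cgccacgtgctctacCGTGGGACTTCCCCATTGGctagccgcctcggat
Creld2, chr15:88819505-88819553, plus strand: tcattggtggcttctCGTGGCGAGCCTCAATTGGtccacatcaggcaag
Herpud1, chr8:94386362-94386402, plus strand: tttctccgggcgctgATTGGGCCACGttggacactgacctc
Dnajb11, chr16:22857852-22857862, plus strand: ATTGGCCCACG

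Of these elements, that of Syvn1 lay nearest the start among the ERSE matches, from base -44 to base -26, and the farther of the 2 in Hsp90b1 began at base -212. The Dnajb11 match lay after the start, from base 8 to base 18. Calr, Derl3, Creld2 and the nearer Hsp90b1 site had the element on the strand opposite to the gene.

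**Figure D1:**
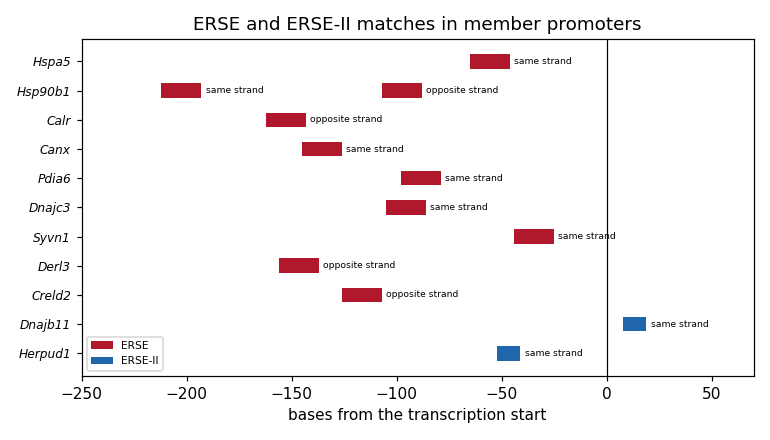
Position of each ERSE (red) and ERSE-II (blue) match, in bases from the transcription start (x axis, 0 is the start), in the promoters of the 11 genes that hold one; the label gives the strand of the element relative to the gene. The ERSE matches lie between base -212 and base -26, and the Dnajb11 match lies after the start.

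None of the 34 genes changed between mutant and control islets at the threshold used, which was an adjusted p (Benjamini-Hochberg, all 22775 genes) under 0.05 in limma with 3 arrays per group. Over all genes tested, 2.53% passed (576 genes), with 1.41% higher and 1.12% lower. At an unadjusted p under 0.05, limma gave 10 of the 34, of which 9 were higher in mutants and 1 lower, against 20.2% of all genes, 9.09% higher and 11.1% lower. The groups did not overlap in 9 of the 34, against 26.3% of all genes. The 3 mutant arrays lay above all 3 control arrays in 8 of the 34 (12.3% of all genes) and below them in 1 (14% of all genes). The log2 difference, mutant minus control, was above 0 in 28 of 34, against 46.6% of all genes, with a median of 0.21 beside -0.025 over all genes.

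That small upward median was sensitive to processing and to single arrays. It was 0.13 with slide as a block, 0.094 under quantile normalization between arrays, 0.12 with the acinar signal as a covariate and 0.11 without mutant C. The count of higher members at an unadjusted p under 0.05 fell from 9 to 2 without control B or without mutant B, to 3 without control C and to 4 without mutant C or with the acinar covariate. Over all 22775 genes the count in either direction fell too, from 4600 to 3044 without control B and 3152 without mutant B. It was 2948 without control C, 4194 without mutant C and 4171 with the acinar covariate. The same count rose to 5994 without control A and to 5366 without mutant A. Some alternatives also gave a higher median or member count, and the last section gives the ranges. Genes in the middle brightness range of the 34 (3969 genes with a mean log2 signal between 1.41 and 4.30, the quartiles of the 34) had a median difference of 0.043, and 57.4% were above 0. The range leaves out members beyond those quartiles, among them the brighter Hspa5, Hsp90b1, Pdia6, Sec61b, Xbp1 and Creld2.

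Levels below are normalized log2 signals, relative to the 75th percentile of each array, and each probe is compared only with itself. Slide 1 carried control A with mutants B and C, and slide 2 carried mutant A with controls B and C. Of all 39429 probes, 63.9% to 76.3% were well above background per array, with the lowest shares in mutants A and B. Each of the 34 genes was read by a probe well above background on all 6 arrays with 0 saturated pixels. The insulin genes Ins1 and Ins2 and the other 11 beta cell markers were also above background on every array. Nkx6-1 itself averaged 4.76 ± 0.10 in control and 4.28 ± 0.20 in mutant arrays (SD, n = 3 each) and did not pass (limma, adjusted p = 0.131). It read 4.79, 4.85 and 4.64 in controls and 4.32, 4.06 and 4.45 in mutants, with no overlap. Where its probe lies relative to the floxed sequence was not annotated, so the extent of deletion cannot be read from this signal.

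**Figure D2:**
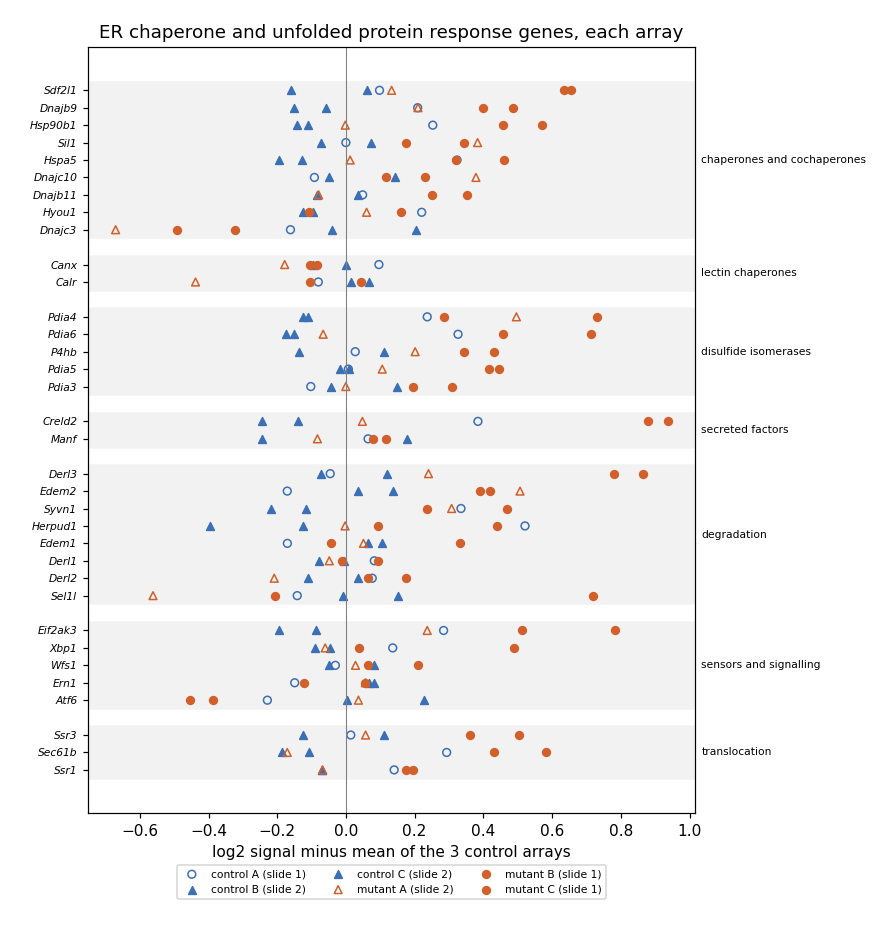
Normalized log2 signal of each of the 34 genes on each array, minus the mean of the 3 control arrays (x axis); blue marks controls and orange mutants, circles slide 1 and triangles slide 2, open symbols replicate A and filled symbols B and C. The slide 1 arrays (circles) lie to the right for Creld2, Pdia6, Sec61b, Hsp90b1 and Hspa5, while Dnajc3 has its 3 mutant arrays on the left and Edem2 has them on the right.

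The classical chaperones differed less between the groups once slide was a term of the model, and neither passed. Hspa5 encodes BiP, the ER member of the HSP70 family that also holds the stress sensors inactive. It read 6.46, 5.95 and 6.01 in controls A, B and C and 6.15, 6.46 and 6.60 in mutants A, B and C. The groups overlapped, and the 3 arrays of slide 1 were the 3 highest. The difference was 0.26 (SE 0.19, n = 3 per group, limma adjusted p = 0.484), or 0.12 (SE 0.09) with slide as a block, and slide 1 exceeded slide 2 by 0.43 in the same model. Hsp90b1, the gene of GRP94, an ER chaperone of the HSP90 family, read 6.05, 5.66 and 5.69 in controls and 5.80, 6.26 and 6.37 in mutants. Here too slide 1 held the 3 highest arrays, and the difference of 0.34 (SE 0.20) went to 0.19 (SE 0.088) with the block. The 95% interval of the blocked difference ran from -0.11 to 0.35 for Hspa5 and from -0.036 to 0.42 for Hsp90b1, so differences within these bounds could not be told from 0 with 6 arrays.

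The cochaperones of BiP went different ways. Dnajc3 encodes P58IPK, a J-domain protein of the ER lumen whose loss in mice is known to cause diabetes. Its probe lies at chr14:119378131-119378190 (mm9, plus strand). The signal was 2.60, 2.73 and 2.97 in controls and 2.10, 2.27 and 2.44 in mutants, with every mutant array below every control array. The difference was -0.50 (SE 0.15), a mutant level 1.41-fold below the control level, and did not pass (limma, adjusted p = 0.144). It was -0.50 with slide as a block, -0.25 within slide 1 and -0.75 within slide 2, and the slides themselves differed by 0.010.

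In contrast to Dnajc3, the J-protein genes Dnajb9 (ERdj4), Dnajb11 (ERdj3) and Dnajc10 (ERdj5, a disulfide reductase) had positive differences of 0.36, 0.17 and 0.24 at their brightest probes. The other Dnajc10 probe read -0.11, so its sign depends on the probe (0.064 as the mean of both), and the other Dnajb9 probe read 0.27. Dnajb9 read 3.99, 3.63 and 3.72 in controls and 3.99, 4.18 and 4.26 in mutants, so that its lowest mutant array lay just above its highest control array. Sdf2l1, an ER protein that binds J-proteins, was at 0.47 (SE 0.18), and Sil1, an exchange factor of BiP, at 0.30 (SE 0.11). The slide difference of Sil1 was -0.062 (SE 0.10), and its arrays read 3.65, 3.58 and 3.73 in controls against 4.04, 4.00 and 3.83 in mutants. For the other exchange factor gene, Hyou1 (GRP170), the difference was 0.037. Over the 9 chaperone and cochaperone genes the median difference was 0.26, or 0.19 with the slide block, 8 were positive, and 0 passed.

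The lectin chaperones bind sugar chains of glycoproteins as they fold, and both were lower in the mutant mean without passing. Calr (calreticulin) read 3.53, 3.63 and 3.68 in controls and 3.18, 3.51 and 3.66 in mutants, a difference of -0.17 (SE 0.15, limma adjusted p = 0.571) that was -0.030 without mutant A. Within slide 1 it was 0.051 and within slide 2 -0.48. Canx (calnexin), the membrane-bound partner, was at -0.12 (SE 0.10).

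All 5 disulfide isomerase genes had positive differences, from 0.17 to 0.50 with a median of 0.33, and 0 passed. These enzymes make and rearrange the disulfide bonds that proinsulin needs. Pdia4 (ERp72) read 1.17, 0.81 and 0.82 in controls and 1.43, 1.66 and 1.22 in mutants, a difference of 0.50 (SE 0.17, limma adjusted p = 0.173) with no overlap. P4hb, the gene of protein disulfide isomerase, averaged 4.71 ± 0.13 in control and 5.04 ± 0.12 in mutant arrays (SD, n = 3 each), a difference of 0.33 (adjusted p = 0.207). For Pdia5 the difference was 0.32 and for Pdia3 (ERp57, which works with the lectins) 0.17. Pdia6 (P5) read 6.86, 6.36 and 6.38 in controls and 6.47, 6.99 and 7.25 in mutants. Its difference of 0.37 went to 0.18 with the slide block, and slide 1 exceeded slide 2 by 0.57. The other Pdia6 probe read 0.13. With slide as a block the median of the 5 isomerases was 0.27.

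Creld2 and Manf encode ER proteins that are known to be induced by stress and partly secreted. Creld2 read 4.98, 4.35 and 4.45 in controls and 4.64, 5.53 and 5.47 in mutants. Mutants B and C were the highest, but control A lay above mutant A. The difference of 0.62 (SE 0.29, limma adjusted p = 0.306) was the second highest of the 34, and it was 0.38 (SE 0.10, adjusted p = 0.131) with slide as a block. Its probe was spotted 10 times per array, with an SD of 0.041 to 0.090 between spots of an array on the log2 scale, while the SD between arrays was 0.34 in controls and 0.50 in mutants. The slide difference of Creld2, 0.72 (SE 0.10), was larger than its genotype difference in the same model, and its adjusted p was 0.0739. Manf was at 0.038 (SE 0.14).

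**Figure D3:**
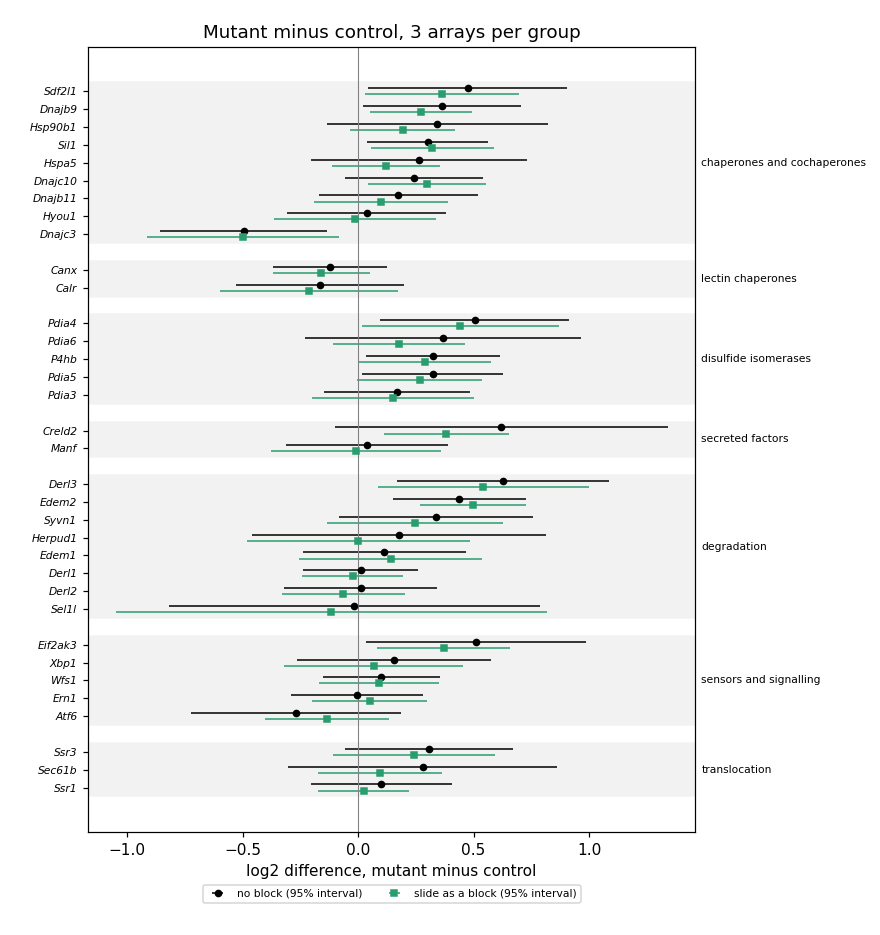
Log2 difference, mutant minus control, for each of the 34 genes with its 95% interval from limma, without a block (black circles) and with slide as a block (green squares). The genes are grouped by role, and the interval of Creld2 is narrower and its value lower, 0.38 in place of 0.62, with the block.

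Genes of ER-associated degradation held both the smallest p and the highest difference of the list. Edem2 encodes a protein that starts the trimming of mannose on misfolded glycoproteins. Its probe lies at chr2:155534678-155534737 (mm9, minus strand). It read -0.28, -0.074 and 0.028 in controls and 0.40, 0.31 and 0.28 in mutants. Every mutant array lay above every control array on both slides. The difference was 0.44 (SE 0.12), a 1.36-fold higher level (95% interval 1.11 to 1.65), and did not pass (limma, adjusted p = 0.118). The slide block gave 0.50 (SE 0.088, adjusted p = 0.0642), at 0.58 within slide 1 and 0.42 within slide 2. For Edem1, its relative, the difference was 0.11 with overlapping groups.

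Derl3 belongs to the derlin family of membrane proteins that help move chains out of the ER. It read 1.39, 1.36 and 1.55 in controls and 1.68, 2.30 and 2.22 in mutants. The difference of 0.63 (SE 0.19), 1.55-fold, was the highest of the 34 and did not pass (limma, adjusted p = 0.144). The 2 slide 1 mutants were well above mutant A, and the difference was 0.87 within slide 1 and 0.22 within slide 2. For Derl1 and Derl2 the differences were 0.011 and 0.010, while the other Derl1 probe read 0.18 and the 2 other Derl2 probes read -0.19 and -0.19.

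Sel1l and Syvn1 encode the HRD1 ubiquitin ligase complex of the ER membrane. Sel1l varied most among the mutants, at 0.55, 0.90 and 1.83, against 0.97, 1.10 and 1.26 in controls, so its difference of -0.017 (SE 0.33) has no settled sign. Syvn1 read 4.50, 3.94 and 4.05 in controls and 4.47, 4.40 and 4.63 in mutants, a difference of 0.34 (SE 0.17). Herpud1, a stress-induced member of that complex, read 4.74, 4.10 and 3.83 in controls and 4.22, 4.31 and 4.66 in mutants. Control A was its highest array, and its difference of 0.18 (SE 0.26) went to 0.0012 with the slide block. Of the 8 degradation genes 7 had positive differences, with a median of 0.14, and 0 passed.

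The 3 stress sensors had different patterns across the arrays, and 0 passed. Eif2ak3 (PERK) phosphorylates a translation initiation factor. It read 1.33, 0.85 and 0.96 in controls and 1.28, 1.56 and 1.83 in mutants, with control A just above mutant A. The difference was 0.51 (SE 0.19, 1.42-fold, limma adjusted p = 0.222), the third highest of the 34, at 0.36 within slide 1 and 0.38 within slide 2. Ern1 (IRE1), which splices Xbp1 mRNA, read 0.14, 0.35 and 0.37 in controls and 0.34, 0.34 and 0.16 in mutants, a difference of -0.0030 (95% interval -0.29 to 0.28). For Atf6 the signals were -0.63, -0.40 and -0.18 in controls and -0.37, -0.86 and -0.79 in mutants. Mutants B and C and control A, all on slide 1, were its lowest arrays, and the difference of -0.27 (SE 0.19) was -0.14 with the slide block.

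Xbp1, the transcription factor activated by IRE1, read 5.53, 5.30 and 5.34 in controls and 5.33, 5.43 and 5.88 in mutants, a difference of 0.16 (SE 0.17, limma adjusted p = 0.642). Mutant C alone lay above all controls. The array reads total Xbp1 at this probe, and splicing was not analysed here. Wfs1, an ER membrane protein whose loss causes Wolfram syndrome, read 3.70, 3.82 and 3.69 in controls and 3.76, 3.80 and 3.94 in mutants, a difference of 0.10 (95% interval -0.15 to 0.35). Over the 5 sensor and signalling genes the median difference was 0.10, and 0 passed.

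At the entry to the ER, Sec61b, a subunit of the translocation channel, was at 0.28 (SE 0.24), or 0.094 with the slide block, with slide 1 above slide 2 by 0.56. Its other probe read -0.041. Ssr1 and Ssr3, subunits of the channel-associated TRAP complex, were at 0.10 and 0.31. The 2 other Ssr1 probes read -0.17 and 0.018, and the other Ssr3 probe read 0.44. None of these genes passed.

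The slides differed in the same direction as the genotypes for most of the 34. With slide and genotype in 1 model, slide 1 was above slide 2 in 28 of 34 genes, against 49.6% of all genes, with a median of 0.19 beside -0.0030. Among the 3969 genes in the middle brightness range of the 34, 62.7% were higher on slide 1, with a median of 0.063. None of the 34 passed for slide, against 167 of all genes (0.733%). At an unadjusted p under 0.05, 9 were higher on slide 1 (10.1% of all genes) and 1 was lower (12.1%). Control A was the highest control in 18 of 34 (39.4% of all genes), mutant A the lowest mutant in 25 (37.1%), and both held in 15 (21.3%). Under quantile normalization 22 of 34 were higher on slide 1, against 47.5% of all genes, with a median of 0.094 beside -0.017. Slide 1 held 2 of the 3 mutants, so part of an unblocked genotype difference moves with the slide.

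With slide as a block 0 of the 34 passed for genotype, against 670 genes (2.94%), and 11 had an unadjusted p under 0.05, 10 higher (9.85% of all genes) and 1 lower (12.3%). Within slide 1, 28 of 34 differences were above 0 (48.3% of all genes), and within slide 2, 21 were (45.4%), with medians of 0.24 and 0.080. The sign was the same on both slides for 23 of 34 genes, against 62.6% of all genes, and 19 were above 0 on both (28.2%).

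**Figure D4:**
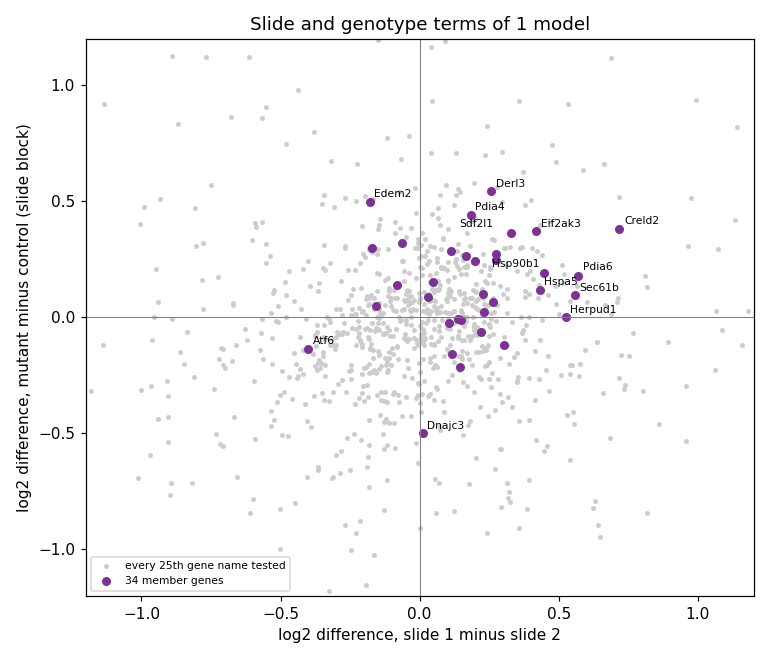
Slide difference (slide 1 minus slide 2, x axis) against genotype difference (mutant minus control with slide as a block, y axis) on the log2 scale, for the 34 genes (purple) and every 25th gene name tested (grey); genes beyond the axes are not drawn. Creld2, Pdia6, Sec61b, Herpud1, Hsp90b1 and Hspa5 lie farther along the slide axis than the genotype axis, and Edem2 and Dnajc3 lie along the genotype axis.

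Genes with an ERSE had differences of both signs. Of the 9, 6 had a positive difference, from -0.50 for Dnajc3 to 0.63 for Derl3, with a median of 0.34 (0.18 with the slide block). The 18 genes whose window held neither ERSE nor ERSE-II had a median of 0.26 (0.20 with the block), and 16 were positive. Against slide, all 9 ERSE genes were higher on slide 1, by 0.010 to 0.72 (median 0.27), as were 14 of the 18 without (median 0.19). The difference between the 2 sets was not tested.

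Markers of other cell types varied across the same arrays. Relative to the control mean, the median of the 34 genes was 0.070, -0.093 and 0.022 in controls A, B and C and 0.032, 0.22 and 0.37 in mutants A, B and C. Acinar cells, the enzyme-secreting cells around the islets, have a large ER, and of 29 acinar markers listed 28 were tested, each above background on all 6 arrays. Their medians were -0.35, -0.063 and 0.41 in controls and -0.93, 0.99 and 2.04 in mutants, and 0 passed. Their summed linear signal, relative to the 75th percentile, was 1786 to 2562 in controls and 1197, 3806 and 6596 in mutants A, B and C. Thus mutants B and C, highest for the 34 genes, were also highest for acinar markers, while control A, the highest control for the 34 genes, was the lowest control for acinar markers. The median acinar difference was 1.91 within slide 1 and -1.08 within slide 2, beside 0.24 and 0.080 for the 34 genes. With the mean acinar signal as a covariate the difference of Edem2 was 0.45, of Dnajc3 -0.60 and of Derl3 0.48. The part of acinar RNA in the other differences was not tested beyond that fit.

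Of 13 beta cell markers 5 fell and 0 rose, with a median of -0.81. The 13 include Nkx6-1, the gene targeted in the mutants, at -0.48. Slc2a2, the glucose transporter GLUT2, fell by 2.01 (limma, adjusted p = 0.0415). The hormone genes Ins1, Ins2 and Iapp, which are known products of beta cells, were at 0.26, 0.25 and 0.26 and did not pass (adjusted p = 0.481, 0.702 and 0.673). On mutant C they read 8.28, 8.56 and 8.17, close to the hormone genes Gcg (8.65) and Sst (8.51) and the acinar gene Cpb1 (8.57). Saturated pixels were reported above only for the ER genes, and whether such bright signals were compressed was not tested. An unchanged level of hormone mRNA is therefore not shown. Fewer beta cells and less RNA per beta cell cannot be told apart in such samples. Of the 15 leukocyte and plasma cell markers, plasma cells being rich in ER, 13 were tested, 11 of them above background on all 6 arrays. Their summed signal was 30.6 to 32.5 in controls and 19.8 to 24.8 in mutants, and 0 passed. The sum is dominated by Itgam and Cd3e, at -0.49 and -0.55, while the median difference of the list was 0.12, with 8 of 13 positive. The plasma cell genes Igj and Sdc1 were at 0.85 (SE 1.11) and 0.25 (SE 0.19), and Igj was at -1.51 within slide 1 and 2.95 within slide 2. In the same list Prdm1 was at 0.12 and Irf4, well above background on 4 of the 6 arrays, at -1.66 (SE 0.46).

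The 12 markers of alpha, delta and PP cells, the other hormone cells of the islet, had medians of 0.33, 0.031 and -0.30 in controls A, B and C and 0.15, 0.51 and 0.60 in mutants A, B and C. Control A was thus the highest control and mutants B and C the highest arrays, as for the 34 genes. The median difference was 0.43 with 10 of 12 positive, and 0 passed. Mesenchyme and stellate cell markers, 9 of 10 tested, had medians of 0.74, -0.23 and -0.45 in controls and 0.49, 0.60 and 0.31 in mutants, with 0 called. The endothelial, duct and Schwann cell lists, with 9, 9 and 6 genes tested, had median differences of 0.19, -0.17 and 0.11, and 0 passed. With slide as a block 1 duct gene passed, Cftr, which was well above background on 5 of the 6 arrays. It was at 2.53 with the block (limma, adjusted p = 0.016) and at 3.12 without it (0.083). The part of these cell types, beta cells and leukocytes included, in the results was not tested.

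**Figure D5:**
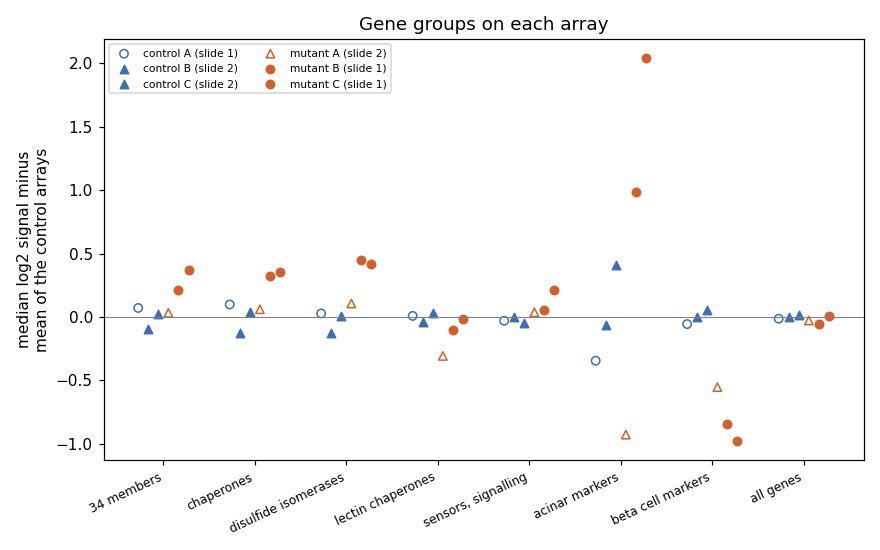
Median normalized log2 signal of gene groups on each array, minus the mean of the control arrays (y axis); blue marks controls and orange mutants, circles slide 1 and triangles slide 2. The acinar markers span -0.93 to 2.04, the 34 genes -0.093 to 0.37, and the beta cell markers are below 0 on all 3 mutant arrays.

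Outside the 34 genes, called changes in the ER pathways lay in the lists of disulfide formation and of stress signalling, against 2.53% of genes called over all. In disulfide formation and folding, the 25 other genes had a median of 0.10, with 17 positive and 8 negative. At an unadjusted p under 0.05, limma gave 6 higher and 1 lower (9.09% and 11.1% of all genes). At the adjusted threshold 0 of the 25 rose and 1 fell. That gene, Ero1lb, encodes the oxidase that recharges disulfide isomerases in beta cells. It read 5.94, 6.13 and 6.34 in controls and 4.88, 4.39 and 4.57 in mutants, a 2.87-fold fall (log2 difference -1.52, SE 0.17, limma adjusted p = 0.0210) on both slides. It is also one of the beta cell markers counted above.

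In unfolded protein response signalling and its downstream factors, 1 of 25 other genes rose and 3 fell, with a median of -0.084. At an unadjusted p under 0.05, limma gave 2 higher and 8 lower (9.09% and 11.1% of all genes). Txnip, a thioredoxin inhibitor whose mRNA is known to respond to glucose and to IRE1 and PERK signalling, rose 4.97-fold, with control arrays at 2.88 ± 0.16 and mutant arrays at 5.19 ± 0.17 (SD, n = 3 each; limma, adjusted p = 0.00601). Creb3l1, a membrane-bound transcription factor cleaved like ATF6, fell by 1.04 (adjusted p = 0.0377). Ddit3 (CHOP), a factor downstream of PERK, fell by 0.64 and Nck2, an adaptor linked to translation control, fell by 0.55, both at an adjusted p of 0.0478. With slide as a block their adjusted p values were 0.0616 and 0.0508. With the block 5 of the 25 passed, against 2.94% of all genes. These were Txnip and Creb3l1 and, named after their values were seen, Trib3, Chac1 and Casp12. Trib3, a pseudokinase induced by CHOP, was at -1.89 (adjusted p = 0.0690) without the block and -2.18 (0.0226) with it. Chac1, a glutathione-degrading enzyme, was at -1.34 (0.156) and -1.67 (0.0411), and the caspase gene Casp12, well above background on 4 of the 6 arrays, at -0.73 (0.0559) and -0.80 (0.0384). Not all genes of this list went down, as 10 of the 25 differences were positive and 15 negative without the block. Ppp1r15a, also named after its values were seen, was at 0.61 (limma, adjusted p = 0.1465) and 0.51 (0.1543).

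The remaining lists had 0 called genes. Translocation and signal peptide removal had a median of 0.15 over 21 genes, with Srp19, a subunit of the signal recognition particle, at 0.59 (limma, adjusted p = 0.388) and Sec11c, of the signal peptidase, at 0.54 (0.266). N-glycosylation had a median of 0.18 over 17 genes, with Uggt2, a folding-sensor glucosyltransferase, at 0.61 (0.352) and Mogs, a glucosidase, at 0.39 (0.278). Of 25 other degradation genes listed 20 were tested, with a median of 0.13, with the lectin gene Os9 at 0.32 (0.407) and Rad23b, which delivers substrates to the proteasome, at 0.29 (0.263). At an unadjusted p under 0.05 these 3 lists had 2, 2 and 1 higher genes and 0 lower, numbers close to the 9.09% of all genes that were higher at that p, while 11.1% were lower.

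The genes whose signal followed Edem2 and Dnajc3 most closely over the 6 arrays were mostly uncharacterized or not ER genes. For Edem2 the 5 highest Pearson correlations were 0.994 for 5730559C18Rik, 0.992 for 4931429I11Rik, 0.991 for Ggt7, 0.990 for Vsx1 and 0.990 for Fam163a. For Dnajc3 they were 0.997 for Lmbrd2, 0.995 for Mtdh, 0.993 and 0.989 for 2 transcripts without a symbol, and 0.991 for Gm2533. Over 22775 genes and 6 arrays, correlations of this size are a description only.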

How the data were processed

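The series holds 6 single-colour Agilent arrays, each hybridised with Cy3-labelled RNA (150 ng labelled) from 1 pool of islets. The authors deposited scanner files from Agilent Feature Extraction 10.7.3.1 (version per the submitters' processing notes) with spot intensities that, per the file headers, were corrected for background and spatial trend but not scaled between arrays, and with flag columns (other values) for background and saturation. A deposited matrix of linear intensities, equalized between arrays by the authors in a way not given in the sources used here, served as an alternative.

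Each array's 75th percentile was subtracted from the log2 processed signal, and replicate spots of a probe were averaged. Probes well above background on all arrays of at least 1 group were tested (28361 of 39429), and the brightest tested probe stood for a gene name. The comparison used limma 3.58.1 under R 4.3.3 (with version 1.17.8 of data.table for reading), two-sided, with calls at an adjusted p (Benjamini-Hochberg, 22775 gene names) under 0.05. Fits with slide, read from the file headers, as a block were run beside it. The scripts were tested on simulated data. Arrays have no read depth, and precision is limited by having 3 arrays per group. The labels call the samples biological replicates. Motifs were searched in RefSeq promoters with Python 3.11.15, and figures were drawn with matplotlib 3.10.9.

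The members and the gene lists were chosen with earlier results of these data known. All 34 members are accounted for, and values on every array are given for the 3 sensors, Xbp1, Hspa5, Hsp90b1, Wfs1, the 3 highest and 3 lowest differences and, chosen after their values were seen, some other members. Of each list of other ER genes, up to 4 called genes with the smallest p are named or, with none called, the 2 with the largest difference. Genes alike were the 5 highest Pearson correlations with each of the 2 members of smallest p. The same 3 letters number both groups and no label ties them to litters, so they were not used as pairs. Deviations of same-letter samples correlated at -0.23, -0.19 and -0.031. Same-letter samples always lay on different slides, so these correlations cannot decide whether they are pairs. Alternatives were normexp (offset 50), quantile normalization, median scaling, the equalized values, other probe filters and probe rules, removal of outlier spots, a variance trend with robust estimation, an adjusted p under 0.1, slide or letter as a block, and each array left out. A covariate of acinar signal and a fit without mutants A and B were chosen after seeing the data.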

Additional observations from a re-analysis of the deposited data

How the results depend on the processing

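Of the 34 genes, 0 were called higher and 0 lower under every alternative run, with 2 to 13 members higher at an unadjusted p under 0.05. The median log2 difference of the 34 was 0.21 and kept its sign. It ran from 0.094 to 0.22 over the listed alternatives with all arrays and from 0.11 to 0.26 with 1 array left out. With quantile normalization and the slide block together it was 0.090. Without mutants A and B, where mutant C is assumed to vary like the controls, it was 0.37. The count of called genes in the whole table, 576, was 146 with the acinar covariate, 1514 at an adjusted p under 0.1, and 13 to 418 with 1 array left out (for controls A, B and C 418, 13 and 21, for mutants A, B and C 283, 20 and 72). At an unadjusted p under 0.05 in limma the whole table held 4600 genes with all arrays. With 1 array left out that count ran from 2948 (without control C) to 5994 (without control A). With the replicate block limma called 0 genes (3163 at an unadjusted p under 0.05) and 0 of the 34. It called 0 genes without mutants A and B too (3864 at an unadjusted p under 0.05). The causes were not tested. Of 680 single differences under alternatives, 642 kept their sign and their side of the threshold and 38 changed sign, in 10 genes. With slide as a block Derl1 was -0.025, Derl2 -0.064, Ern1 0.049, Hyou1 -0.012 and Manf -0.0082. Under quantile normalization Derl1 was -0.014, Derl2 -0.057 and Manf -0.044. With the acinar covariate Derl1 was -0.017, Derl2 -0.081, Ern1 0.023 and Manf -0.015. In the equalized values Derl2 was -0.0017, Ern1 0.0062 and Manf -0.029, and with median scaling Ern1 was 0.0080. As the mean of their probes Derl2 was -0.12 and Ssr1 -0.017. Without mutants A and B Calr was 0.044 and Sel1l 0.72. With 1 array left out the values ran from -0.030 to 0.052 for Derl1, -0.072 to 0.12 for Derl2, -0.078 to 0.056 for Ern1, -0.021 to 0.44 for Herpud1, -0.026 to 0.15 for Hyou1, -0.084 to 0.13 for Manf, -0.38 to 0.26 for Sel1l and -0.011 to 0.26 for Xbp1. Why these differences changed sign was not tested. Probes near background limit the faint genes, while the 34 were above it on all arrays.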
